A study of Mus musculus with 4 samples.

Results

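The 10 genes described here encode subunits of chromatin remodellers: 6 of the SWI/SNF (BAF) complex, Smarcc1, Smarcc2, Smarca2, Smarca4, Arid1a and Arid1b, and 4 of the CHD family, Chd3, Chd4, Chd5 and Chd8. Their RNA was examined for binding by MOV10, a cytoplasmic RNA helicase known to work with Argonaute proteins. A peak was counted for a gene when its midpoint lay inside the gene's RefSeq span on the mouse build GRCm38. By this rule the genes held 45 of the 12236 peaks in the list, and 7 of the 10 genes held at least 1.

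The peaks came from eCLIP of N2A cells, a mouse neuroblastoma line grown in standard medium, for which the labels give no added treatment or genetic change. In eCLIP, ultraviolet light joins proteins to the RNA they touch, the protein is immunoprecipitated, and its RNA fragments are sequenced beside a size-matched input. The series held 4 libraries, 2 immunoprecipitates with an anti-MOV10 antibody and 2 inputs, and asked which RNAs the antibody pulled down. The authors' list joined all 4 into 1 set of peaks, so each peak has 1 value, with no standard deviation or n of its own, and the depth of the libraries is unknown. No comparison below could be tested against replicate error, and all of them are descriptions.

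Chromatin remodellers use ATP to slide, evict or exchange nucleosomes. The BAF complex is built around 1 of a pair of alternative ATPases, SMARCA2 (BRM) or SMARCA4 (BRG1), on a scaffold of SMARCC1 (BAF155) and SMARCC2 (BAF170), and its canonical form contains ARID1A or ARID1B. CHD3, CHD4 and CHD5 are the ATPases of the nucleosome remodelling and deacetylase complex NuRD, and CHD8 belongs to another branch of the CHD family and is linked to autism. In the developing nervous system, BAF and NuRD exchange subunits as progenitors become neurons. MOV10 is known to act on mRNAs in the cytoplasm. A peak here reports on RNA from a remodeller gene, whether spliced or not, and not on the activity of its protein.

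The strength of a peak is given by 2 values of the authors'. They are the −log10 p and, on a log2 scale, the fold enrichment of the immunoprecipitates over the inputs, called log2 enrichment from here on. The file names neither column, and this reading comes from the range of the values. The list starts just above 3 on each scale, at 3.001 for the enrichment and 3.01 for the −log10 p, so a gene without a peak may still have been bound more weakly, or its RNA may have been scarce. Fewer cells with a transcript and less of it per cell cannot be told apart in these samples. Over all coding genes, 8.53% held a peak by the same rule (1868 of 21900), and 8.28% when only peaks on the strand of the gene were counted. The share of 7 in 10 among the remodeller genes is given beside this value without further reading, since the genes were chosen with earlier results of the data known.

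Among the scaffold subunits, Smarcc1 carried most of the signal. On chromosome 9 (110132024 to 110240178, plus strand), it held 22 of the 45 peaks (48.9%), all on the strand of the gene. Their log2 enrichment ran from 3.16 through a median of 4.04 to 4.80, a 27.9-fold linear enrichment at the highest. The −log10 p ran from 8.84 through a median of 15.5 to 30.8. Among the 1868 coding genes with a peak, Smarcc1 ranked 99 by number of peaks, 240 by strongest enrichment and 146 by highest −log10 p. Over these genes the median was 3 peaks, with a median strongest log2 enrichment of 3.84 and a median highest −log10 p of 8.92.

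All 22 peaks of Smarcc1 lay in the last part of a gene of 108155 nt, between 89.5 and 2118.5 nt from the annotated 3′ end. Together they formed a block of 2123 nt, 1.96% of the span, and covered 66.0% of that block. Many of them touched, and merging touching peaks left 12 intervals of 31 to 279 nt with gaps of 6 to 178 nt between them. The widest interval, at 110239338 to 110239616, contained the strongest peak of all 10 genes (110239496 to 110239588, log2 enrichment 4.80, −log10 p 19.4), 636 nt from the end. A further group of touching peaks about 1.8 kb from the end held the highest −log10 p, 30.8, in a peak at 110238412 to 110238493 with a log2 enrichment of 4.59. The peaks thus formed a series of intervals with 2 high points rather than a single site.

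**Figure D1:**
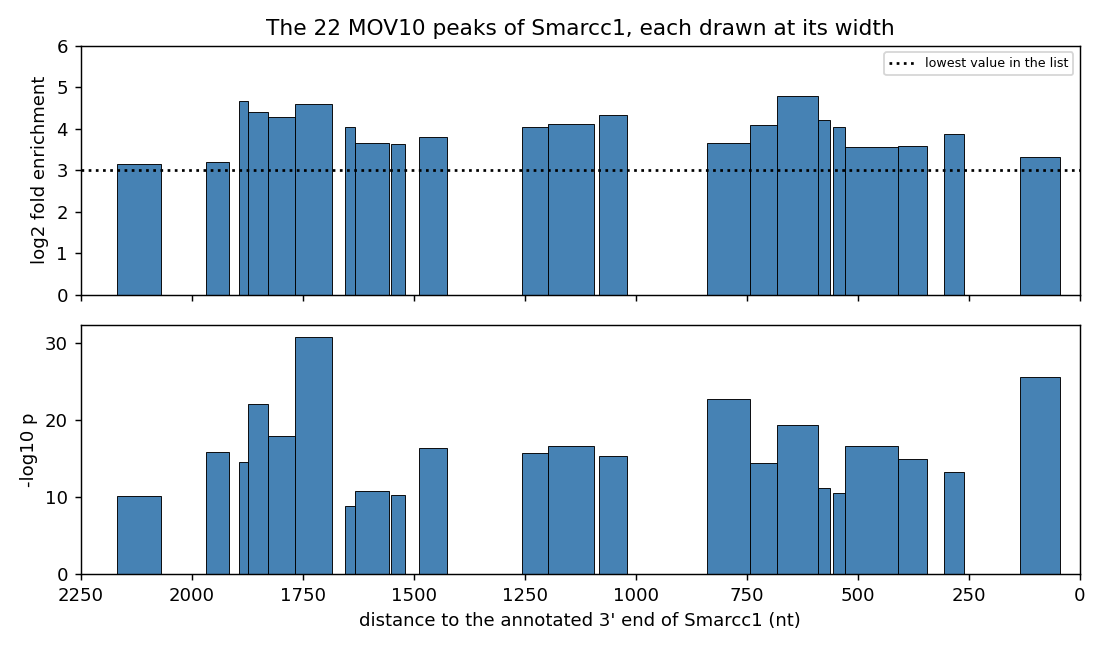
The 22 peaks of Smarcc1 by distance to the annotated 3′ end in nt, each bar as wide as its peak, with the log2 enrichment above (dotted line, lowest value in the list, 3.001) and the −log10 p below. The enrichment has high points near 636 and near 1883 nt from the end, while the peak at 89.5 nt is low in enrichment (3.32) and high in −log10 p (25.7).

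Enrichment and −log10 p ordered the Smarcc1 peaks differently. The peak nearest the end, at 89.5 nt, ranked 20 of 22 by enrichment (3.32) but 2 by −log10 p (25.7). The peak second by enrichment, 4.67 at 1883 nt, spanned 21 nt and ranked 14 by −log10 p (14.5). Over the 22 peaks, Spearman's rho was 0.23 between the 2 values, −0.27 between enrichment and width, and 0.51 between −log10 p and width. Over all 11938 peaks in coding genes the same values were 0.47, −0.17 and −0.19. These peaks share libraries and neighbouring reads, so the coefficients are descriptions only. In the last 1 kb of the gene the median log2 enrichment was 3.88 (9 peaks), against 4.04 in the 13 peaks before it.

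Smarcc2, whose protein can pair with SMARCC1 in the same scaffold, held 1 peak. The gene lies on chromosome 10 (128459182 to 128490591, plus strand), and the peak at 128489720 to 128489815 was 823.5 nt from the 3′ end. Its log2 enrichment was 3.27 and its −log10 p 4.37, both in the low part of the list. The strongest peak of Smarcc1 exceeded it by 1.54 on the log2 scale, a ratio of 2.90 between the enrichments. Every peak of Smarcc1 had a higher −log10 p than this one, while 2 of its 22 peaks had a lower enrichment.

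The ATPase genes of BAF differed in another way. Smarca4, which encodes BRG1, held 5 peaks, and Smarca2, which encodes BRM, held 0. Smarca4 lies on chromosome 9 (21616106 to 21704230, plus strand). Its peaks had log2 enrichments of 3.40, 3.05, 3.09, 3.43 and 3.02 from 5′ to 3′, all below the median of peaks in coding genes, 3.70. Their −log10 p values were 8.20, 8.51, 3.01, 4.84 and 4.15 in the same order, so 3 of the 5 were under 5.

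Smarca4 was also the exception in position. Its peaks lay 18791.5 to 21639 nt before the annotated 3′ end, in a stretch of 2963 nt (21682537 to 21685499) well inside a gene of 88.1 kb, and 0 of 5 lay within 5 kb of that end. Of the 1550 coding genes of at least 15 kb with a peak, 82 (5.29%) had their nearest peak more than 15 kb from the 3′ end, as Smarca4 did. The peaks were sparse, covering 18.1% of their stretch, near the 25.2% of Chd5 but below the 66.0% of Smarcc1 and the 68.8% of Arid1a. Whether the stretch is exonic or intronic was not determined, because exons were not used here. Smarca2, on chromosome 19 (26605073 to 26778321), was 985 kb from the nearest listed peak.

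**Figure D2:**
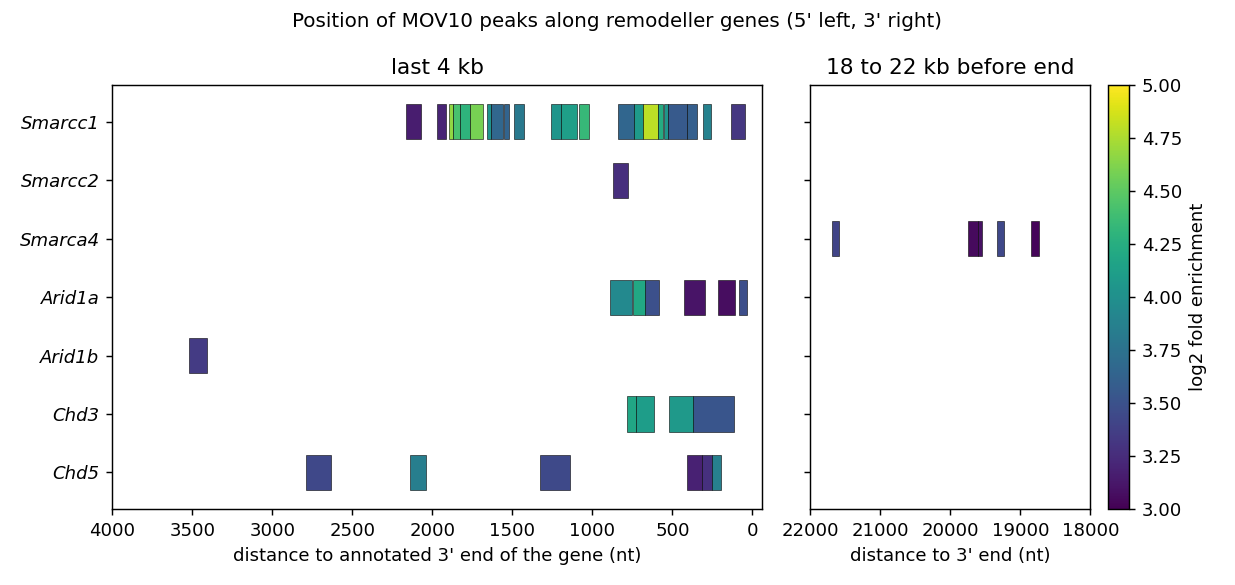
Position of each peak in the 7 remodeller genes with peaks, as distance to the annotated 3′ end in nt, with bars drawn at the width of the peak and coloured by log2 enrichment; the right panel shows the stretch 18 to 22 kb before the end. The 5 peaks of Smarca4 stand alone in the right panel, and all 40 other peaks lie within 3462.5 nt of the end.

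The ARID subunits contact DNA and define the canonical BAF complex. Arid1a on chromosome 4 (133679008 to 133756769, minus strand) held 6 peaks, and Arid1b on chromosome 17 (4994297 to 5347656, plus strand) held 1. From the 3′ end inwards, the log2 enrichments of Arid1a were 3.48, 3.06, 3.10, 3.49, 4.20 and 3.94, at 60.5, 161, 361, 627.5, 709.5 and 823 nt from the end. The 2 peaks farthest from the end were thus the strongest by enrichment. Their −log10 p values were 8.35, 16.5, 14.8, 10.5, 12.9 and 13.6 in the same order. The highest belonged to the peak with the lowest enrichment, a parting of the 2 values like that at the end of Smarcc1. The peak of Arid1b, at 5344137 to 5344250, lay 3462.5 nt from the end, with a log2 enrichment of 3.35 and a −log10 p of 3.19. The strongest peak of Arid1a exceeded it by 0.85 on the log2 scale.

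Of the NuRD ATPase genes, Chd3 and Chd5 had peaks and Chd4 had none. Chd3 on chromosome 11 (69343273 to 69369499) held 4 peaks on the minus strand, from which the direction of the gene was taken. From the 3′ end inwards they lay at 243.5, 446.5, 670.5 and 753.5 nt, with log2 enrichments of 3.53, 4.07, 4.10 and 4.18. Enrichment was thus higher the farther a peak lay from the end, while the −log10 p went the other way, from 10.9 through 8.80 and 8.62 to 6.43. The median of the 4 peaks was 4.09, beside 4.04 in Smarcc1.

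Chd5, a CHD gene expressed mainly in the nervous system and known as a tumour suppressor candidate in neuroblastoma, held 6 peaks on chromosome 4 (152338646 to 152390194, plus strand). They were spread more widely than those of Chd3, at 2710.5, 2091, 1235.5, 360.5, 282 and 224.5 nt from the end. Their log2 enrichments were 3.44, 3.85, 3.44, 3.19, 3.27 and 3.87, and their −log10 p values 7.59, 4.90, 4.38, 7.86, 5.73 and 5.28. No peak of Chd5 reached a log2 enrichment of 4. The strongest peak of Chd3 exceeded that of Chd5 by 0.32 on the log2 scale, and the spread of values within either gene was wider than this difference. Past the 3′ end of Chd5, the next 5 kb held 8 peaks up to 4.58, all on the minus strand and in Kcnab2, a potassium channel subunit gene that runs towards Chd5. The strand kept the peaks of the 2 genes apart, and the nearest of these lay 626.5 nt past the end of Chd5.

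Chd4, which encodes the main NuRD ATPase of many cell types, had 0 peaks in its span on chromosome 6 (125095980 to 125130591). The nearest listed peak lay 7248.5 nt beyond its 3′ end, in the ribosome assembly gene Nop2. Chd8 on chromosome 14 (52198151 to 52258042) also had 0, with the nearest listed peak 36.9 kb away. A pair of microRNA hairpins lie inside the 10 genes, Mir7227 in Arid1a and Mir7045 in Chd4. The first was 37219 nt from the nearest peak of its host, and the second lay in a gene without peaks.

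**Figure D3:**
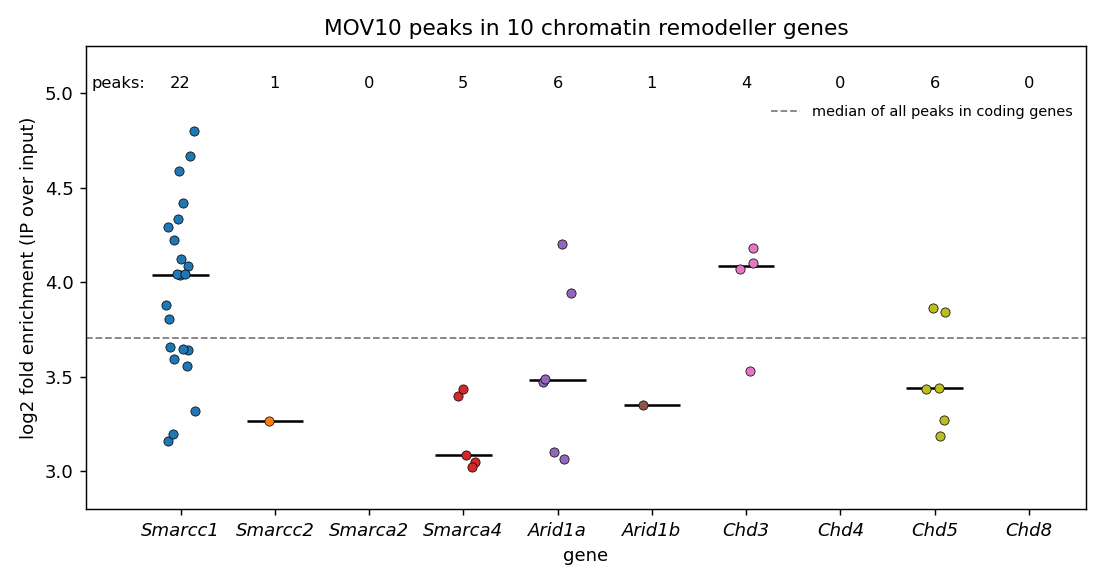
Log2 enrichment of every peak in the 10 genes, 1 point per peak, with the number of peaks above, a bar at the median of each gene and a dashed line at the median of all peaks in coding genes (3.70). Smarcc1 and Chd3 have medians above the line, and Arid1a (3.48) and Chd5 (3.44) have medians below it. Each of these genes has peaks on both sides of the line. All peaks of Smarcc2, Smarca4 and Arid1b lie below it.

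By strongest enrichment the genes ran from Smarcc1 (4.80) through Arid1a (4.20), Chd3 (4.18), Chd5 (3.87), Smarca4 (3.43) and Arid1b (3.35) to Smarcc2 (3.27). No error is known for any of these values, so the order of close neighbours, such as Arid1a and Chd3, carries no weight. By highest −log10 p, Smarcc1 (30.8), Arid1a (16.5) and Chd3 (10.9) led again, but Smarca4 (8.51) stood before Chd5 (7.86), and Arid1b (3.19) came last after Smarcc2 (4.37). The median strongest value over the 7 genes was 3.87, against 3.84 over all coding genes with a peak. Thus the median of the 7 genes lay near that of all coding genes with a peak, with 4 genes above it and 3 below. The single genes were spread, from rank 240 (Smarcc1) to rank 1566 (Smarcc2) of 1868 by strongest enrichment. By highest −log10 p, 3 of the 7 stood above the median of all coding genes with a peak, 8.92.

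Peaks with a log2 enrichment of at least 4 numbered 16 of 45 (35.6%), against 33.5% of peaks in all coding genes, and lay in Smarcc1 (12), Chd3 (3) and Arid1a (1). Of all coding genes, 3.59% held a peak this strong. Without Smarcc1 the share was 17.4% (4 of 23) and the median enrichment 3.44, against 3.65 with it. The −log10 p was also lower without Smarcc1, with a median of 10.8 over the 45 peaks and 7.86 without it, against 10.1 in all coding genes. Over the 45 peaks, the median enrichment was thus below that of peaks in all coding genes, 3.70, and the median −log10 p above. Of the 45 peaks, 7 had a −log10 p under 5 (15.6%, against 15.8% in all coding genes). They were 3 of Smarca4, 2 of Chd5 and the lone peaks of Smarcc2 and Arid1b. The presence of Smarcc2 and Arid1b in the list therefore rests on 1 weak peak each. A single peak was also all that 29.2% of the coding genes with peaks held.

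**Figure D4:**
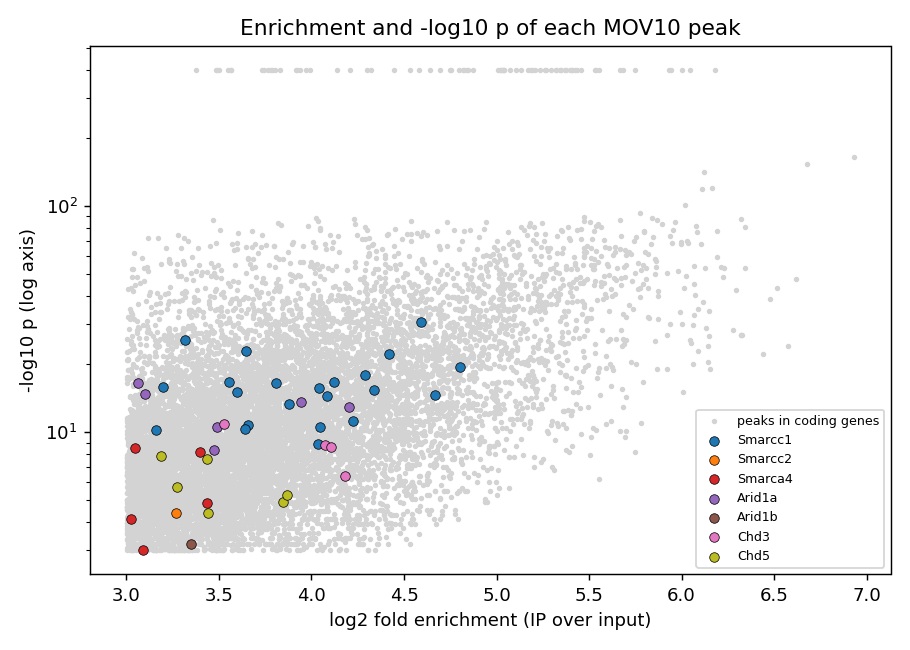
Log2 enrichment (x axis) and −log10 p (y axis, log scale) of each peak, with peaks in coding genes in grey and those of the remodeller genes in colour. Smarcc1 takes up the upper part of the coloured points, up to a −log10 p of 30.8. Smarcc2, Arid1b, 3 peaks of Smarca4 and the Chd5 peaks at 4.90 and 4.38 lie under 5.

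All 10 spans were longer than 15 kb, and 40 of the 45 peaks (88.9%) lay within 5 kb of the annotated 3′ end, close to the 85.9% of peaks in all coding genes of that length. Every peak lay there in 6 of the 7 genes, and in 81.0% of all coding genes of that length with a peak. The 5 peaks beyond were those of Smarca4. Within 5 kb of a 5′ end there were 0, and 0.396% over all coding genes of that length. Within 1 kb of the 3′ end there were 23 of 45 (51.1%, against 32.3%), among them all of Arid1a, Chd3 and Smarcc2. Within 2 kb there were 36 (80.0%, against 58.8%), and 15 of 23 (65.2%) without Smarcc1. Within 10 kb the order was the reverse, with 88.9% against 92.4%. Peaks of 1 gene lie side by side, so these shares rest on 7 genes. Median distance was 823.5 nt for the 45 peaks and 772.5 nt without Smarca4, against 1615.25 nt in all coding genes of at least 15 kb. The rule of membership used the whole span and not the distance to either end.

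By number of peaks, strongest enrichment and distance of the strongest peak from the 3′ end, the genes most like Smarcc1 were Tpm4, Sv2c and Lin28a, by the sum of rank differences over 1868 genes in the 1 combined list. Tpm4, a tropomyosin gene, held 16 peaks up to 4.78 with the strongest 633.5 nt from the end. Sv2c, a synaptic vesicle protein gene, held 22 up to 4.86 at 558.5 nt. Lin28a, a let-7 regulator gene, held 16 up to 4.87 at 687.5 nt. Their rank differences summed to 103, 108.5 and 157.5.

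Beyond the 10 genes, 14 of 72 other remodeller genes held a peak (19.4%, beside 8.53% of all coding genes), 84 peaks in all. Their median strongest log2 enrichment was 3.71. The lists of these genes were also written with earlier results of the data known, so the share is given without further reading. Of 25 other BAF subunit genes, 5 had peaks, led by Pbrm1, which encodes the polybromo subunit of the PBAF form, with 16 peaks up to 4.88 on chromosome 14. Its 16 peaks also lay in the span of Smim4, a gene of the minus strand, while the peaks were on the plus strand, that of Pbrm1. Bicral, a subunit gene of the non-canonical BAF form, held 4 peaks up to 4.03. Arid2 (3.53), Dpf2 (3.57) and Smarcd1 (3.03) held 1 each.

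Of 12 other NuRD genes, 3 had peaks. Gatad2a, which encodes the p66α subunit, held 10 peaks up to 4.59, with a −log10 p up to 34.2. Its paralogue Gatad2b held 1 at 3.25, and Cdk2ap1 held 1 at 3.60. Of 6 other CHD genes, Chd9 held 21 peaks up to 4.32 and Chd2 held 1 at 3.25.

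Of 11 ISWI-type genes 1 had peaks, Baz2a, whose product silences ribosomal DNA. It held 17 peaks up to 5.05, above the strongest value of Smarcc1. Of 8 INO80 and SRCAP genes, Ep400 held 8 peaks up to 4.48 and Srcap 1 at 3.82. Of 10 other SNF2-type genes, 1 had a peak, the DNA methylation cofactor gene Hells, at 3.06.

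Among the other remodeller genes, 2 also had every peak over 15 kb before the 3′ end. The 21 peaks of Chd9 lay 121753 to 197989 nt from the 3′ end of a gene of 226215 nt, and the 8 peaks of Ep400 lay 89539.5 to 92177.5 nt from the end of a gene of 106555 nt. With Smarca4 they made 3 of the 19 remodeller genes of at least 15 kb with peaks, beside 5.29% of all coding genes of that length with a peak. With a limit of 5 kb there were 4, beside 9.03%, the further 1 being Gatad2b, whose peak lay just past that limit at 5343 nt. The peaks of Chd9 were weak by −log10 p, at most 7.12, although numerous.

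**Figure D5:**
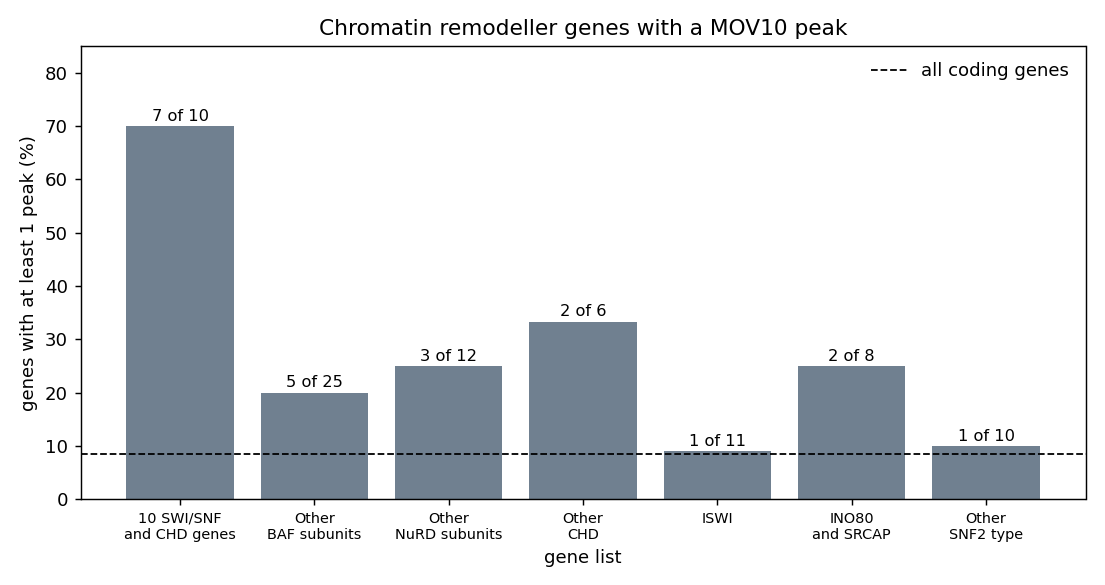
Share of genes with at least 1 peak, in percent, for the 10 SWI/SNF and CHD genes and 6 lists of other remodeller genes, with the counts above each bar and a dashed line at the share of all coding genes (8.53%). The bars of the other lists range from 9.09% (ISWI, 1 of 11) to 33.3% (other CHD, 2 of 6). All lists were chosen with earlier results of the data known.

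The labelled cell type was compared with marker genes, as far as a peak list allows. Of 16 neuronal and neuroblast markers 7 held peaks, among them the microtubule protein genes Mapt (20 peaks, up to 5.33) and Map2 (15 peaks, up to 5.37). Of 6 markers of other cell types, such as the astrocyte gene Gfap and the blood cell gene Ptprc, 0 held a peak. At the 8.53% of all coding genes with a peak, few or none of 6 genes would be listed, so this count does not bear on the cell type. A peak needs the transcript to be present, but the lack of one says nothing of its level.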

How the data were processed

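MOV10 eCLIP was done on 2 immunoprecipitates and 2 inputs of N2A cells, per the labels' protocols. For the peaks, the tool and thresholds, the alignment and the joining of replicates are not given in the labels. The name of the list carries the term IDR (irreproducible discovery rate), without settings. The submitters' processing notes name mm10 and GRCm38.p6 as builds. The list has no header. One column was read as the −log10 p-value computed by the authors. The next was read as an enrichment on the log2 scale, also deposited by the authors. These readings come from the ranges of the values and the usual column order of eCLIP peak files. Whether the replicates came from separate cultures is not stated in the labels.

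Start positions were changed to count from 1. Peaks were assigned by midpoint to the spans of a RefSeq GRCm38.p6 gene table, and genes were oriented by a RefSeq promoter table or, where it lacked the gene (Chd3), by their peaks. All 45 peaks lay in exactly 1 gene span. Distances ran from the peak midpoint to the end of the span. Exons, transcript regions and the sequence under the peaks were not used here, so the planned descriptions of regions, motifs and protein identity were not made, and no peak sequence is printed. Python 3.11.15 with pandas 2.3.3 was used, and the assignment was tested on simulated data.

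The genes and lists were chosen with earlier results of these data known. All 10 genes are named, with those of the other remodeller genes that held a peak and the 3 genes nearest to the gene with most peaks by ranks. Alternatives changed the assignment, the minimum values, the merging of touching peaks and the window at the 3′ end. Counting by strand was added after seeing the data.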

Additional observations from a re-analysis of the deposited data

How the results depend on the processing

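No paired analysis was possible because the list gives 1 value per peak over all libraries, and for the same reason no replicate could be left out. Assignment by any overlap, to single gene spans or by strand left the number of remodeller genes with peaks at 7 and of their peaks at 45. With single gene spans, the other remodeller genes with a peak fell from 14 to 13, losing Pbrm1, whose peaks also lay in Smim4. The 4 peaks of Chd3 could not fail the count by strand, since they gave the gene its direction. By strand, 8.28% of coding genes held a peak. A minimum log2 enrichment of 4 left 3 genes and 16 peaks, all (100%) within 5 kb of the 3′ end. The median strongest value was then 4.20. Of the 72 other remodeller genes 6 were left, beside 3.59% of all coding genes with a peak this strong. With a −log10 p of at least 5, the genes fell to 5, losing Smarcc2 and Arid1b, and the median strongest value rose to 4.18. The other remodeller genes with a peak fell to 10 at that minimum. The share of all coding genes that kept a peak at that minimum was not computed. Merging touching peaks left 29 intervals. The share near the 3′ end was 80.0% within 2 kb and 88.9% within 10 kb, against 58.8% and 92.4% in all coding genes of at least 15 kb, and 85.7% with the strongest peak per gene alone. Alternatives for transcript regions and for sequence were not run. The number of reads behind each peak is unknown, so counting error could not be given.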
